A study of Mus musculus with 12 samples.

Results

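The collagen genes of mouse gonadal white fat were described here across diet and genotype. They were taken as the protein-coding genes of the count table whose symbol is Col, a number, a and a number, which gave 44 of 32238 genes. High-fat diet (HFD) raised 18 of the 41 tested in wild-type (WT) fat, where 9.5% of all genes tested rose. On that diet Col1a1, Col1a2, Col3a1 and Col8a1 were lower in mice that lack Bnip3 in macrophages (MKO) than in WT mice. These are 4 of the 41 tested, where 2.24% of all genes were lower. Leaving out certain single HFD libraries removed all 4 calls. No type IV or type VI collagen was called between the genotypes on HFD by edgeR over all 12 libraries. The authors' deposited table gave Col6a5 and Col6a6, of type VI, as lower in MKO there.

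RNA of whole fat pads was sequenced for 4 groups of 3 biological replicates (rep): WT on normal chow (NCD), MKO on NCD, WT on HFD and MKO on HFD. The diets were given for 12 weeks, from 8 weeks of age. MKO stands for a macrophage-specific knockout of Bnip3, a receptor that marks mitochondria for autophagy. The promoter that drives the deletion is not given in the sources used here. In whole tissue, fewer cells of a type and less RNA per cell cannot be told apart.

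Collagens are secreted proteins whose chains wind into a triple helix. Fibrillar collagens assemble into fibres that bear tension, type IV collagens form the sheet of basement membranes, and type VI collagens form beaded filaments around cells. In fat each adipocyte is wrapped in a basement membrane, and fibroblasts and progenitors make much of the collagen between the cells. Collagen builds up in fat during obesity.

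Levels are given as CPM (counts per library total, with TMM library sizes), and changes on the log2 scale, each followed by its standard error (SE). Tests were edgeR's quasi-likelihood F test, with p adjusted by Benjamini-Hochberg over the 20297 genes tested, and a gene was called when this adjusted p was below 0.05. Of the 44 collagens, 41 passed the filter on low counts and were tested, and Col9a1, Col9a2 and Col25a1 were not. A gene can pass the filter through its highest group alone, so counts over the 41 describe them and no more.

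The libraries held 52.9 to 72.7 M counts. MKO NCD rep 2 stood apart, with 57.3% of all genes at 0, against 15.6 to 38.3% in the other libraries. It read 0 for 17 of the 44 collagens, of which 6 were at 0 nowhere else. Epididymis markers, 10 of 11 measured, summed to 6368 to 7501 CPM in the WT NCD libraries and to at most 20.02 CPM in any other. Of these 10 markers, 8 were at 0 in every WT HFD library and 7 in every MKO HFD library. Smooth muscle and pericyte markers, 7 of 7 measured, summed to 12010.0, 1630.0 and 493 CPM in WT NCD and 416 to 923 CPM elsewhere. The adipocyte markers, 5 of 5 measured, summed to 11150.0 to 24220.0 CPM.

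The promoters of 3 members are shown first, because they stand for the patterns described below. Col3a1 and Col8a1 rose with diet in WT and were lower in MKO on HFD, and Col6a2 rose with diet in both genotypes. Each line holds the 160 bases before the RefSeq start (GRCm38.p6), 5′ to 3′ on the gene's strand. Capitals mark a GC box (GGGCGG) or a TATA box (TATAAA) on either strand. The windows are chr1:45311378-45311537 (plus strand) for Col3a1, chr16:57754738-57754897 (minus strand) for Col8a1 and chr10:76623631-76623790 (minus strand) for Col6a2, and no GENCODE exon overlaps them.
Col3a1: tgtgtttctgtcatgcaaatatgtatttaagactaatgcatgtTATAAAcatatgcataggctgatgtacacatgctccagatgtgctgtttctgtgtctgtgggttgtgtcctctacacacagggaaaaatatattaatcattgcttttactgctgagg
Col8a1: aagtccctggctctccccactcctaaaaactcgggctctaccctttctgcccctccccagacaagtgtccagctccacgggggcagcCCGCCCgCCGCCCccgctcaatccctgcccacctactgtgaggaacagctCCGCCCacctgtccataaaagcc
Col6a2: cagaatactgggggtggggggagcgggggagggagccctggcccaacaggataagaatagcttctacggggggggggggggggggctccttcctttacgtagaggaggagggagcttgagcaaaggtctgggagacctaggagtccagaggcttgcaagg
The Col8a1 window holds 3 GC boxes and the Col3a1 window 1 TATA box, 117 bases before the start. None of these letters, nor a CCAAT box (CCAAT), is in the Col6a2 window. Promoters were matched for 35 of the 44 collagens. Over 250 bases before the start, a GC box was found in 57.9% of 38 collagen promoters and 32.7% of all 32851 promoters. The TATA box was in 13.2% and 12.4%, and the CCAAT box in 34.2% and 33.9%. A match is a description of letters, not of binding.

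Levels of different genes were compared on the authors' FPKM, which is per length. Averaged over 12 libraries the most abundant collagens were Col3a1 (236 FPKM), Col4a1 (224 FPKM), Col4a2 (145 FPKM), Col6a2 (142 FPKM) and Col6a1 (137 FPKM). Col15a1 (116 FPKM), Col5a3 (101 FPKM), Col1a2 (90.5 FPKM) and Col1a1 (44.8 FPKM) followed, and 14 collagens averaged at least 10 FPKM. At the low end, 14 collagens averaged under 1 CPM. These are Col2a1, Col6a4, Col9a1, Col9a2, Col9a3, Col10a1, Col11a1, Col11a2, Col13a1, Col17a1, Col19a1, Col22a1, Col24a1 and Col25a1.

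Summed over the 44 genes, collagen FPKM was 742, 689 and 839 in WT NCD, 1154, 692 and 878 in MKO NCD, 2543, 2422 and 2087 in WT HFD and 1503, 1514 and 1851 in MKO HFD. Every HFD library lay above every NCD library, and WT HFD lay above MKO HFD. The 11 fibrillar genes made up 37.6 ± 5.95% of the sum in WT NCD, 38.2 ± 4.15% in MKO NCD, 42.5 ± 2.998% in WT HFD and 31.9 ± 3.01% in MKO HFD (SD, n = 3). On HFD this share ranged over 39.0 to 44.4% in WT and 30.2 to 35.4% in MKO, without overlap. The 6 type VI genes made up 17.7 ± 0.482% in WT NCD, 14.5 ± 2.75% in MKO NCD, 25.3 ± 1.43% in WT HFD and 25.1 ± 2.52% in MKO HFD. The type VI share was thus higher on HFD in both genotypes, and the fibrillar share was lower in MKO than in WT on HFD. These shares were not tested.

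**Figure D1:**
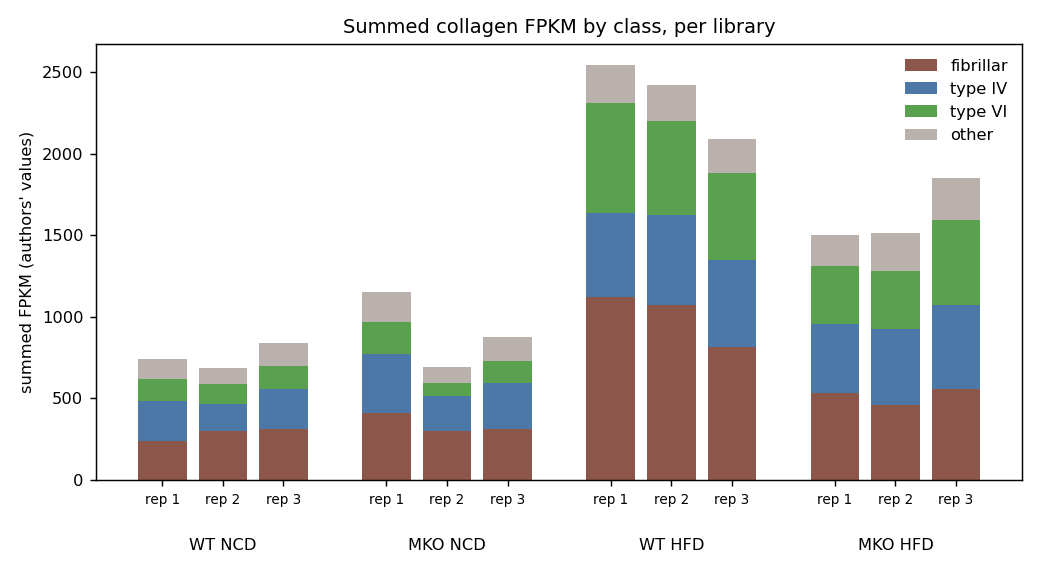
Summed FPKM of the 44 collagens (authors' values, vertical axis) in each of the 12 libraries, stacked by class. The fibrillar class stands at 1003 ± 165 FPKM in WT HFD and 516 ± 52.1 FPKM in MKO HFD (SD, n = 3).

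The diet comparison asks how HFD changed collagen transcripts in each genotype. In WT, HFD raised 18 of the 41 tested collagens and lowered none, at 43.9% of those tested. Over all genes tested 17.8% were called, 9.5% higher and 8.28% lower. The tested collagens had a median log2 fold change of 0.50, against -0.09 for all genes. In MKO the diet raised 6 of 41 and lowered none, where 2.01% of all genes were called, 1.04% higher and 0.966% lower. These 6 are Col4a1, Col5a1, Col6a1, Col6a2, Col12a1 and Col18a1, all of which also rose in WT. With only the 6 MKO libraries in the fit 0 of these 6 were called, where 0.235% of all genes were. The WT count lay between 16 and 24 when any 1 library was left out, where 8.78 to 31.4% of all genes were called. The MKO count was 10 without MKO NCD rep 1, 1 without MKO NCD rep 3, and 3, 2 and 1 without MKO HFD rep 1, rep 2 and rep 3.

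Markers of other cells moved with diet in the same WT libraries. Macrophage markers were higher on HFD for 10 of 10, with sums of 471 to 1231 CPM in WT NCD and 3528 to 5456 CPM in WT HFD. Fibroblast and progenitor markers other than collagens were higher for 7 of 10, with sums of 482 to 689.7 CPM and 1058 to 1105 CPM. Smooth muscle and pericyte markers were lower for 4 of 7 and epididymis markers for 6 of the 8 tested. Over all genes tested 9.5% were higher and 8.28% lower with diet in WT. In MKO no marker of these lists was called for diet, where 2.01% of all genes were. Their part in the collagen levels was not tested.

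**Figure D2:**
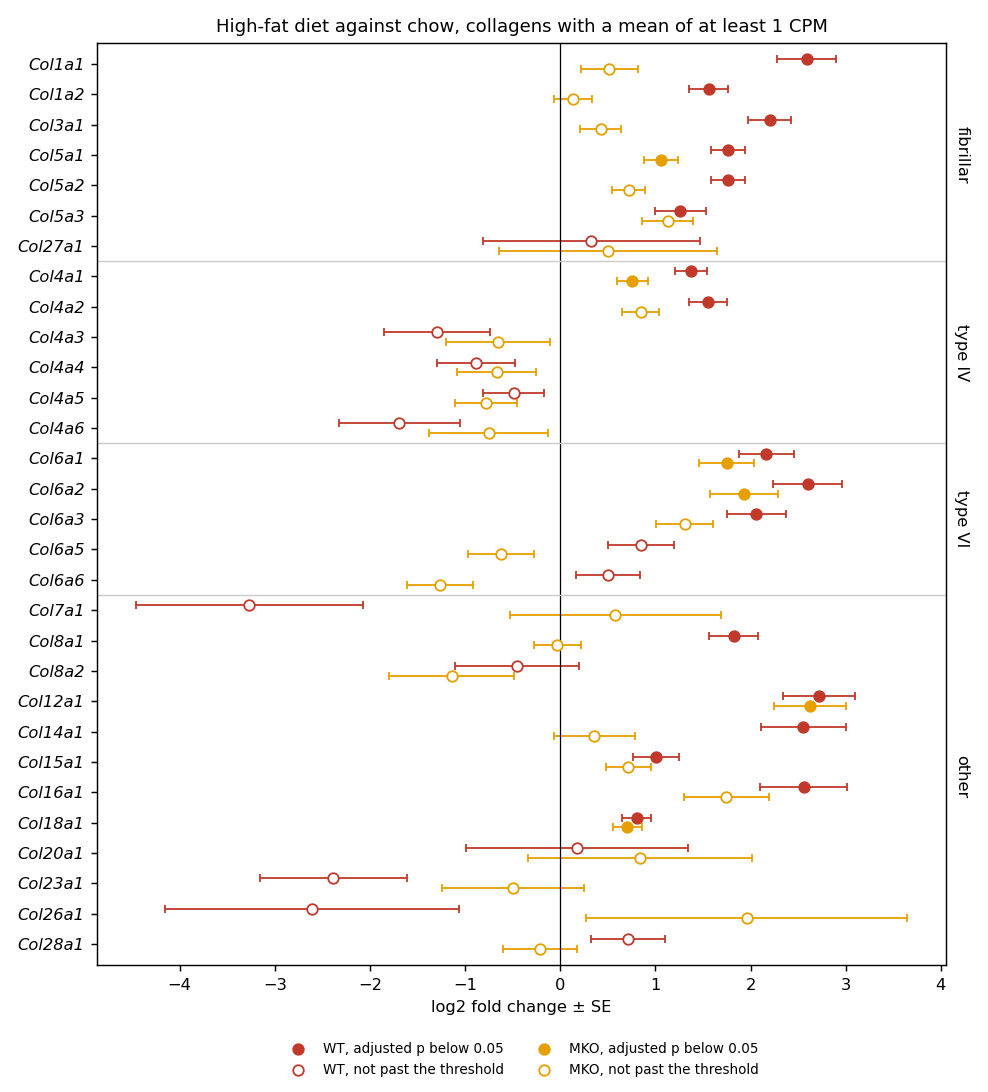
Log2 fold change of HFD against NCD (horizontal axis, ± SE) for the 30 collagens with a mean of at least 1 CPM, in WT and in MKO, by class. Filled points passed the threshold, and Col1a1 lies at 2.59 in WT and 0.52 in MKO, while Col12a1 lies at 2.72 and 2.63.

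Type I collagen, the main fibre of skin, tendon and bone, is built of Col1a1 and Col1a2 chains. Col1a1 (RefSeq, GRCm38.p6, chromosome 11, 94936224 to 94953042) stood at 98.3, 121 and 98.9 CPM in WT NCD, against 718, 639 and 558 CPM in WT HFD. MKO libraries held 125, 207 and 97.7 CPM on NCD, against 194, 135 and 287 CPM on HFD. The WT HFD libraries were above all others, and the MKO groups overlapped. The diet effect on Col1a1 was 2.59 (SE 0.31, adjusted p = 5.02e-04) among WT libraries, and 0.52 (SE 0.30, adjusted p = 0.406) among MKO libraries.

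Col1a2 (chromosome 6, 4505618 to 4541543) showed 263, 359 and 324 CPM in WT NCD, against 1051, 984 and 756 CPM in WT HFD. Its MKO levels were 340.2, 367 and 282 CPM on NCD, against 390.3, 268 and 428 CPM on HFD. Here too WT HFD lay apart from the other 3 groups and the MKO groups overlapped. HFD changed it by 1.56 (SE 0.20, adjusted p = 6.67e-04) in WT, and the value in MKO was 0.14 (SE 0.20, adjusted p = 0.793).

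Col3a1 (chromosome 1, 45311538 to 45349706) encodes the chain of type III collagen, which runs with type I in tissue that stretches. Its level was 491, 742 and 608 CPM in WT NCD, against 3304, 3060.0 and 2092 CPM in WT HFD. For MKO the libraries read 967, 841 and 737 CPM on NCD, against 1295, 906 and 1215 CPM on HFD. Again the WT HFD libraries were the highest and the MKO groups overlapped. The diet effect was 2.2 (SE 0.22, adjusted p = 2.27e-04) among WT libraries, and 0.42 (SE 0.21, adjusted p = 0.342) among MKO libraries.

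**Figure D3:**
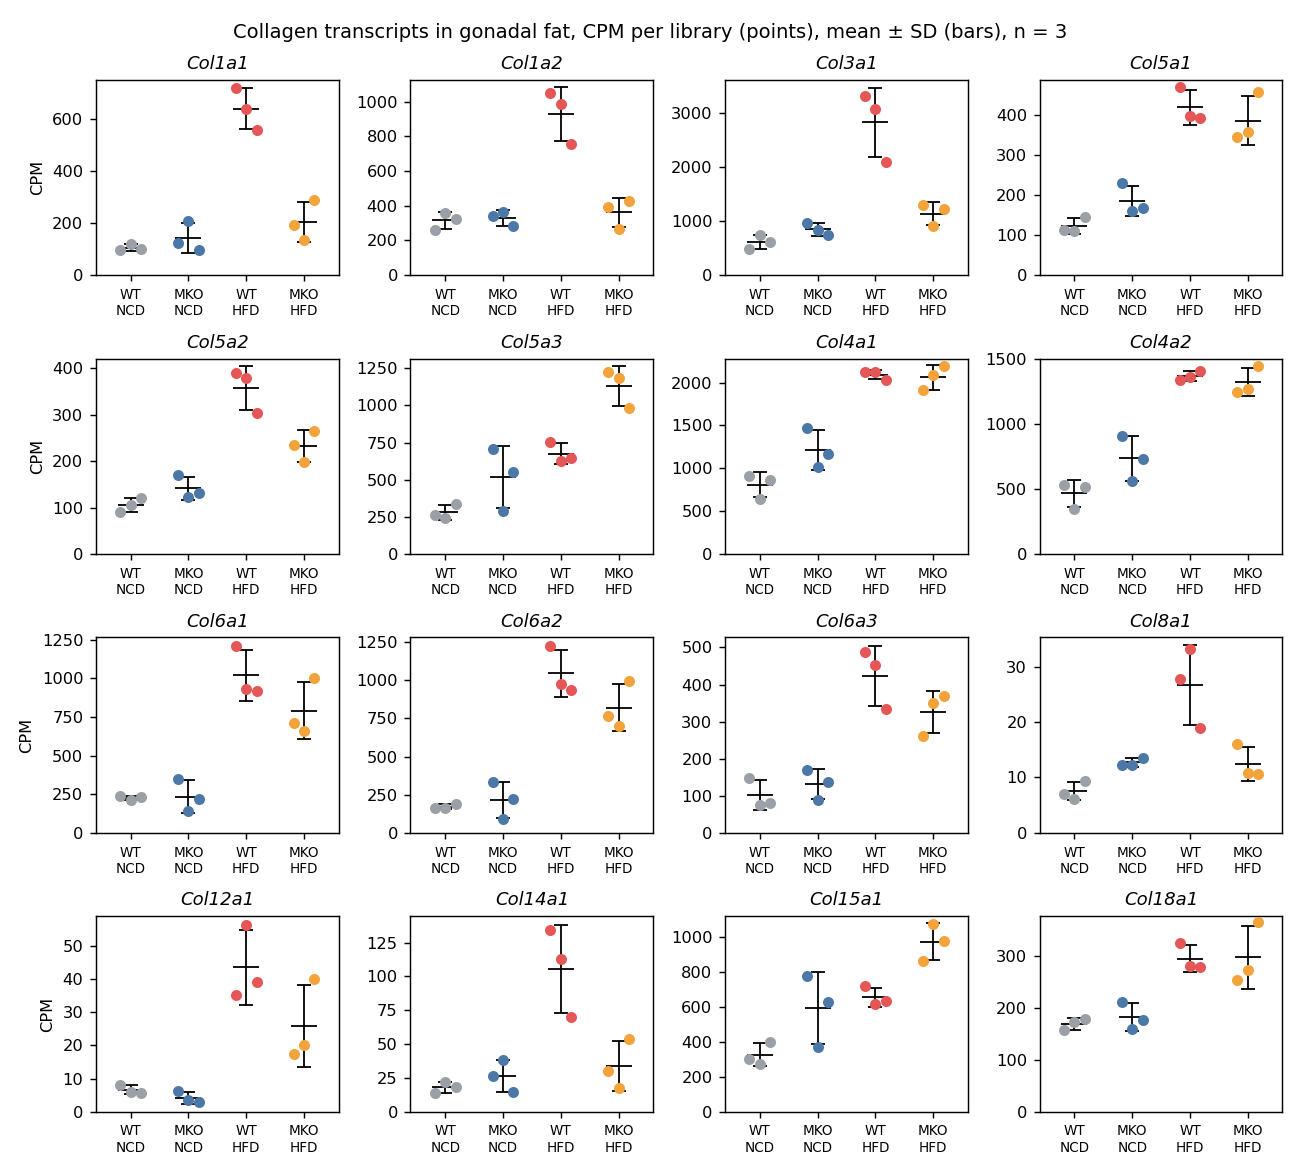
CPM per library (points, vertical axis from 0) for 16 collagens in the 4 groups, with mean and SD (bars, n = 3). For Col1a1, Col1a2, Col3a1, Col8a1 and Col14a1 the WT HFD points stand above the other 3 groups, while for Col4a1, Col4a2, Col6a1 and Col6a2 both HFD groups stand above both NCD groups.

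Type V collagen sits within type I fibrils and limits their width. Col5a1, its main chain, read 113, 111 and 146 CPM in WT NCD, against 469, 396 and 391 CPM in WT HFD. MKO mice had 229, 159 and 167 CPM on NCD, against 343, 357 and 456 CPM on HFD. All HFD libraries lay above all NCD libraries. The diet effect on Col5a1 was 1.76 (SE 0.18, adjusted p = 2.36e-04) for WT, and 1.06 (SE 0.18, adjusted p = 0.0166) for MKO. The MKO call was lost without MKO NCD rep 3, MKO HFD rep 2 or MKO HFD rep 3, with adjusted p up to 0.0739.

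Its partner chain Col5a2 lies 24.6 kb from Col3a1 on chromosome 1. It read 89.3, 106 and 120.1 CPM in WT NCD, against 389, 379.6 and 304 CPM in WT HFD. The MKO values were 170.1, 122 and 131 CPM on NCD, against 234, 198 and 266 CPM on HFD. HFD libraries stood above NCD libraries in both genotypes. The effect was called in WT at 1.76 (SE 0.18, adjusted p = 2.27e-04), and MKO missed the threshold at 0.72 (SE 0.17, adjusted p = 0.0613).

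Col5a3, a further type V chain, was highest in MKO HFD. It read 262, 243 and 339.7 CPM in WT NCD, against 754, 622 and 648 CPM in WT HFD. MKO fat gave 704, 290.3 and 553 CPM on NCD, against 1226, 1187 and 979 CPM on HFD. Each MKO HFD library was above every library of the other groups. HFD shifted Col5a3 by 1.26 (SE 0.27, adjusted p = 0.00879) among WT libraries, and 1.13 (SE 0.27, adjusted p = 0.0607) among MKO libraries. Other fibrillar genes were scarce: Col27a1 read 0 CPM in MKO NCD rep 2 and 3.06 to 9.18 CPM elsewhere, and Col2a1, Col11a1, Col11a2 and Col24a1 reached at most 2.41 CPM. Col2a1, the cartilage fibril gene, had 3, 13 and 37 counts in WT NCD and 0 counts in each HFD library.

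The ubiquitous chains of type IV collagen, Col4a1 and Col4a2, rose with diet. Col4a1 read 915, 641 and 866 CPM in WT NCD, against 2122, 2120.0 and 2032 CPM in WT HFD. In MKO, NCD libraries gave 1472, 1012 and 1172 CPM, and HFD libraries 1908, 2083 and 2189 CPM. No HFD library overlapped an NCD library, and the HFD groups overlapped each other. For Col4a1 the diet effect was 1.37 (SE 0.17, adjusted p = 5.05e-04) in WT mice, and 0.76 (SE 0.17, adjusted p = 0.0439) in MKO mice. The MKO call was lost without WT NCD rep 3, MKO NCD rep 2, MKO NCD rep 3 or any 1 HFD library, with adjusted p up to 0.153.

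Col4a2 lies head to head with Col4a1 on chromosome 8, where their RefSeq bounds share 85 bases. It read 534, 346 and 516 CPM in WT NCD, against 1336, 1359 and 1410.0 CPM in WT HFD. The libraries of MKO held 909, 565 and 734 CPM on NCD, against 1249, 1272 and 1448 CPM on HFD. As for Col4a1, all HFD libraries were above all NCD libraries. It rose in WT by 1.55 (SE 0.20, adjusted p = 5.82e-04), and the MKO value was 0.85 (SE 0.19, adjusted p = 0.0539). Col4a1 and Col4a2 kept a similar balance, with an FPKM ratio of 1.41 to 1.81 over the 12 libraries.

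The chains Col4a3, Col4a4, Col4a5 and Col4a6, known from membranes such as that of the kidney glomerulus, were called in no comparison. The diet effect in WT was -1.29 (SE 0.56, adjusted p = 0.138) for Col4a3, -0.89 (SE 0.41, adjusted p = 0.170) for Col4a4, -0.49 (SE 0.32, adjusted p = 0.344) for Col4a5 and -1.69 (SE 0.64, adjusted p = 0.0944) for Col4a6. Col4a6 read 60.1 CPM in WT NCD rep 1 and 3.37 to 15.4 CPM elsewhere. That library also had the highest smooth muscle marker sum, and the part of that tissue in Col4a6 was not tested.

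Of the 6 type VI collagen genes, 3 rose with diet in WT (Col6a1, Col6a2 and Col6a3) and 2 in MKO (Col6a1 and Col6a2). All 6 were tested, and the share of all genes that rose was 9.5% in WT and 1.04% in MKO. Col6a1 (chromosome 10, 76708792 to 76726044) read 238, 209.9 and 232 CPM in WT NCD, against 1210.0, 929 and 915 CPM in WT HFD. MKO pads held 347, 139.7 and 218 CPM on NCD, against 708, 662 and 1001 CPM on HFD. Each HFD library exceeded each NCD library. The diet effect on Col6a1 was 2.17 (SE 0.29, adjusted p = 8.02e-04) among WT libraries, and 1.75 (SE 0.29, adjusted p = 0.0160) among MKO libraries. The MKO call was lost without MKO NCD rep 3 or MKO HFD rep 3, with adjusted p up to 0.0698.

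Col6a2, the gene beside Col6a1 at a distance of 85.2 kb, read 163, 165 and 190.4 CPM in WT NCD, against 1224, 975 and 939 CPM in WT HFD. MKO samples showed 330.4, 92.7 and 225 CPM on NCD, against 768, 698 and 997 CPM on HFD. Both HFD groups again lay above both NCD groups. Diet changed Col6a2 by 2.60 (SE 0.37, adjusted p = 9.90e-04) in WT, and by 1.93 (SE 0.36, adjusted p = 0.0253) in MKO. The latter call was lost without MKO NCD rep 3 or any 1 MKO HFD library, with adjusted p up to 0.0892.

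Col6a3, from whose end the fragment endotrophin is cut, read 148, 76.0 and 81.2 CPM in WT NCD, against 487, 452 and 333 CPM in WT HFD. The MKO pads gave 170.3, 87.6 and 138 CPM on NCD, against 261, 349 and 369 CPM on HFD. Groups on different diets did not overlap. It rose in WT by 2.06 (SE 0.31, adjusted p = 0.00141), and MKO fell short of the threshold at 1.31 (SE 0.30, adjusted p = 0.0550).

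The other type VI genes, Col6a4, Col6a5 and Col6a6, lie side by side on chromosome 9. None was called in any comparison. Col6a5 read 63.2, 136 and 98.6 CPM in WT NCD, against 160.4, 186 and 189.5 CPM in WT HFD. In MKO it stood at 86.5, 143 and 81.2 CPM on NCD, against 83.3, 36.2 and 81.5 CPM on HFD. WT HFD was above the other 3 groups. Diet moved Col6a5 by 0.85 (SE 0.35, adjusted p = 0.120) among WT libraries, and -0.63 (SE 0.35, adjusted p = 0.388) among MKO libraries. For Col6a6 it was 0.50 (SE 0.34, adjusted p = 0.356) among WT libraries, and -1.27 (SE 0.34, adjusted p = 0.0959) among MKO libraries. Col6a4 reached at most 1.66 CPM.

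Among collagens that sit on the fibril surface (FACIT), Col12a1 rose in both genotypes. It read 8.15, 5.94 and 5.70 CPM in WT NCD, against 35.2, 56.2 and 38.9 CPM in WT HFD. The levels in MKO were 6.15, 3.47 and 2.94 CPM on NCD, against 17.4, 20.1 and 40.1 CPM on HFD. No HFD library overlapped an NCD library. Its diet effect was 2.72 (SE 0.38, adjusted p = 9.73e-04) among WT libraries, and 2.63 (SE 0.38, adjusted p = 0.0107) among MKO libraries, and both calls held without any 1 library. The MKO call was lost with only the libraries compared.

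Col14a1, another FACIT collagen, read 13.6, 22.1 and 18.3 CPM in WT NCD, against 134, 113 and 70.3 CPM in WT HFD. MKO tissue had 26.8, 37.9 and 14.6 CPM on NCD, against 29.9, 17.9 and 53.8 CPM on HFD. WT HFD lay apart and the MKO groups overlapped. The effect of diet was 2.55 (SE 0.45, adjusted p = 0.00303) among WT libraries, and 0.36 (SE 0.42, adjusted p = 0.738) among MKO libraries.

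Col16a1, also of the FACIT class, read 16.3, 14 and 17.4 CPM in WT NCD, against 79.6, 106 and 96.2 CPM in WT HFD. MKO NCD libraries gave 13.2, 11.2 and 9.58 CPM, and MKO HFD libraries 20.8, 18.2 and 74.8 CPM. MKO HFD rep 3 was thus near the WT HFD libraries and the other 2 MKO HFD libraries were near NCD levels. Col16a1 rose in WT by 2.56 (SE 0.46, adjusted p = 0.00342), and MKO missed the threshold at 1.74 (SE 0.45, adjusted p = 0.0800). Of the remaining FACIT genes, Col20a1 read 0 CPM in MKO NCD rep 2 and 2.63 to 10.5 CPM elsewhere. Col22a1 reached 4.05 CPM, and Col9a1, Col9a2, Col9a3 and Col19a1 at most 0.897 CPM.

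Col15a1 and Col18a1 (multiplexins) belong to basement membrane zones. Col15a1 read 302, 275 and 400.1 CPM in WT NCD, against 718, 614 and 632 CPM in WT HFD. MKO animals showed 780.3, 371 and 628 CPM on NCD, against 866, 1076 and 978 CPM on HFD. MKO HFD was the highest group without overlap. For Col15a1 the effect was 1.007 (SE 0.24, adjusted p = 0.0149) in WT, whereas MKO gave 0.71 (SE 0.24, adjusted p = 0.167). The WT call was lost without rep 1 or rep 2 of WT NCD or rep 1 of WT HFD, with adjusted p up to 0.0646.

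Col18a1, from which endostatin is cut, read 157, 172 and 179 CPM in WT NCD, against 325, 280.5 and 280.0 CPM in WT HFD. Libraries of MKO fat had 211, 159 and 177 CPM on NCD, against 253, 273 and 366 CPM on HFD. All HFD libraries lay above all NCD ones. Its diet effect was 0.80 (SE 0.15, adjusted p = 0.00517) among WT libraries, and 0.70 (SE 0.15, adjusted p = 0.0459) among MKO libraries. The MKO call held without MKO NCD rep 1 and was lost without each of the other 11 libraries in turn, with adjusted p up to 0.157.

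Col8a1, a short-chain collagen of vessel walls, read 7.08, 6.15 and 9.43 CPM in WT NCD, against 27.8, 33.2 and 19.0 CPM in WT HFD. MKO gave 12.3, 12.3 and 13.6 CPM on NCD, against 16.03, 10.7 and 10.6 CPM on HFD. WT HFD was the highest group, and the MKO groups overlapped. The effect of HFD was 1.82 (SE 0.26, adjusted p = 9.94e-04) among WT libraries, and -0.03 (SE 0.25, adjusted p = 0.973) among MKO libraries. Col10a1, known from growth plate cartilage, had 74, 34 and 6 counts in WT HFD and 0 counts in all WT NCD libraries. With a floor of 3 counts over the WT NCD group, the pooled WT HFD counts put it 46.9-fold higher, a value without an error. Of the 114 WT HFD counts, rep 1 gave 74. No NCD library held more than 3 counts, so Col10a1 passed the filter only through HFD libraries. It counts among the collagens raised in WT (adjusted p = 0.0390). That call was lost without any 1 WT library or MKO HFD rep 1, with adjusted p up to 0.107. Col8a2 read 0.706 to 5.36 CPM and Col28a1 3.22 to 15.7 CPM, and neither was called.

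Several collagens of epithelia were highest in WT NCD, the group with epididymis markers. Col7a1, which forms the anchoring fibrils of skin, read 17.0, 4.69 and 8.31 CPM there and at most 1.47 CPM elsewhere. Col17a1, a part of hemidesmosomes, read 2.24, 1.98 and 3.13 CPM there and at most 1.22 CPM elsewhere. Col23a1, a transmembrane collagen, read 103, 16.8 and 12.5 CPM there and 1.93 to 10.2 CPM elsewhere. Their WT diet effects missed the threshold, at -3.27 (SE 1.19, adjusted p = 0.0850), -3.38 (SE 1.34, adjusted p = 0.110) and -2.38 (SE 0.78, adjusted p = 0.0569). Without MKO NCD rep 2 in the fit they were lower on HFD in WT, with adjusted p of 0.00217, 0.00205 and 0.0250. So were Col2a1 (adjusted p = 0.0440) and Col11a1 (adjusted p = 0.0305). No HFD library held more than 3 counts of either gene, so both passed the filter only through NCD libraries. These 2 calls describe that pattern and no more. In that fit 31.4% of all genes were called for diet in WT, against 17.8% with all libraries. Col7a1 and Col23a1 were highest in WT NCD rep 1, the library with the highest smooth muscle marker sum, while the epididymis sums of rep 1, rep 2 and rep 3 were 6368, 7256 and 7501 CPM. The part of either tissue in these levels was not tested. Among the other transmembrane collagens, Col13a1 reached 1.12 CPM and Col25a1 0.288 CPM.

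On NCD, where the question is the effect of the knockout without obesity, 0 of 41 collagens were called between MKO and WT by edgeR. Over all genes 4.35% were called, 2.22% higher and 2.13% lower in MKO. At an unadjusted p below 0.05 there were 12 collagens, 8 higher and 4 lower, against 19.7% of all genes tested. DESeq2 called 8 collagens and 10.9% of all genes with an adjusted p, and limma-voom with sample weights called 6 collagens and 7.13% of all genes. The effect was 0.59 (SE 0.17, adjusted p = 0.0682) for Col4a1, 0.66 (SE 0.19, adjusted p = 0.0803) for Col4a2, 0.87 (SE 0.27, adjusted p = 0.0903) for Col5a3 and 0.86 (SE 0.24, adjusted p = 0.0672) for Col15a1. Without MKO NCD rep 2 these 4 were higher in MKO (0.71, adjusted p = 0.0433 for Col4a1 and 1.11, adjusted p = 0.00915 for Col15a1) and Col7a1 was lower (-3.38, adjusted p = 0.0209). Without WT NCD rep 3, Col23a1 (-3.15, adjusted p = 0.0465) and Col26a1 (-7.70, adjusted p = 0.0428) were lower. Of all genes 4.76% were called without MKO NCD rep 2 and 3.58% without WT NCD rep 3. Endothelial markers, 8 of 8 measured, summed to 538 to 1218 CPM in MKO NCD and 267 to 682 CPM in WT NCD, and 1 of 8 was called higher. All 5 adipocyte markers had a positive value and 2 were called higher, while epididymis markers were lower for 4 of the 8 tested. The part of these cells in the collagen values was not tested.

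On HFD, 4 of 41 collagens were lower in MKO than in WT and none was higher, at 9.76% of those tested. Over all genes 3.57% were called, 1.34% higher and 2.24% lower. The called genes were Col1a1 (-1.64, SE 0.30, adjusted p = 0.0192), Col1a2 (-1.36, SE 0.20, adjusted p = 0.0108), Col3a1 (-1.31, SE 0.22, adjusted p = 0.0129) and Col8a1 (-1.10, SE 0.25, adjusted p = 0.0388). Mean levels were 638 ± 79.6 CPM in WT HFD, against 205 ± 76.7 CPM in MKO HFD, for Col1a1 (SD, n = 3). For Col3a1 they were 2819 ± 641 CPM, against 1138 ± 206 CPM. None of the 4 overlapped between the genotypes. Of the 41 tested collagens, however, 15 lay lower and 2 higher in MKO without overlap. Lack of overlap thus does not set the 4 apart. This comparison shares its WT HFD libraries with the diet comparison in WT. The tested fibrillar genes had a median of -1.04, type IV -0.04, type VI -0.38 and the others -0.41, against 0.00 for all genes.

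The 4 calls depended on single libraries. The count was 1 without WT HFD rep 1 and 8 without MKO NCD rep 2, where 0.814% and 7.32% of all genes were called. It was 0 without WT HFD rep 2, MKO HFD rep 1 or MKO HFD rep 2, where 0.224%, 0.0325% and 0.0603% were. Over the 12 fits that each leave out 1 library, adjusted p reached 0.0974 for Col1a1, 0.0594 for Col1a2, 0.0741 for Col3a1 and 0.208 for Col8a1. Col8a1 was also lost without WT NCD rep 1, MKO NCD rep 1, MKO NCD rep 3 or MKO HFD rep 3.

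Type IV and type VI collagens were not called between genotypes on HFD by edgeR over all libraries. All 6 type VI genes had a negative value there. Summed type VI FPKM was 674, 574 and 535 in WT HFD, against 359, 354 and 518 in MKO HFD. These sums were not tested. Col4a1 was at 2092 ± 51.2 CPM in WT, against 2060.0 ± 142 CPM in MKO (-0.02, SE 0.16, adjusted p = 1). Col6a1 was at 1018 ± 166 CPM, against 790.3 ± 184 CPM (-0.36, SE 0.28, adjusted p = 0.656). Col6a5 did not overlap between genotypes and missed the threshold (-1.42, SE 0.35, adjusted p = 0.0541), as did Col14a1 (-1.64, SE 0.43, adjusted p = 0.0665) and likewise Col5a2 (-0.62, SE 0.17, adjusted p = 0.0779). Without MKO HFD rep 3 both Col14a1 (-2.14, adjusted p = 0.0233) and Col16a1 (-2.27, adjusted p = 0.00131) were called lower. In that fit 3.77% of all genes were called. Col5a3 (0.74, SE 0.27, adjusted p = 0.188) and Col15a1 (0.57, SE 0.24, adjusted p = 0.273) had the opposite sign, with each MKO library above each WT library.

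**Figure D4:**
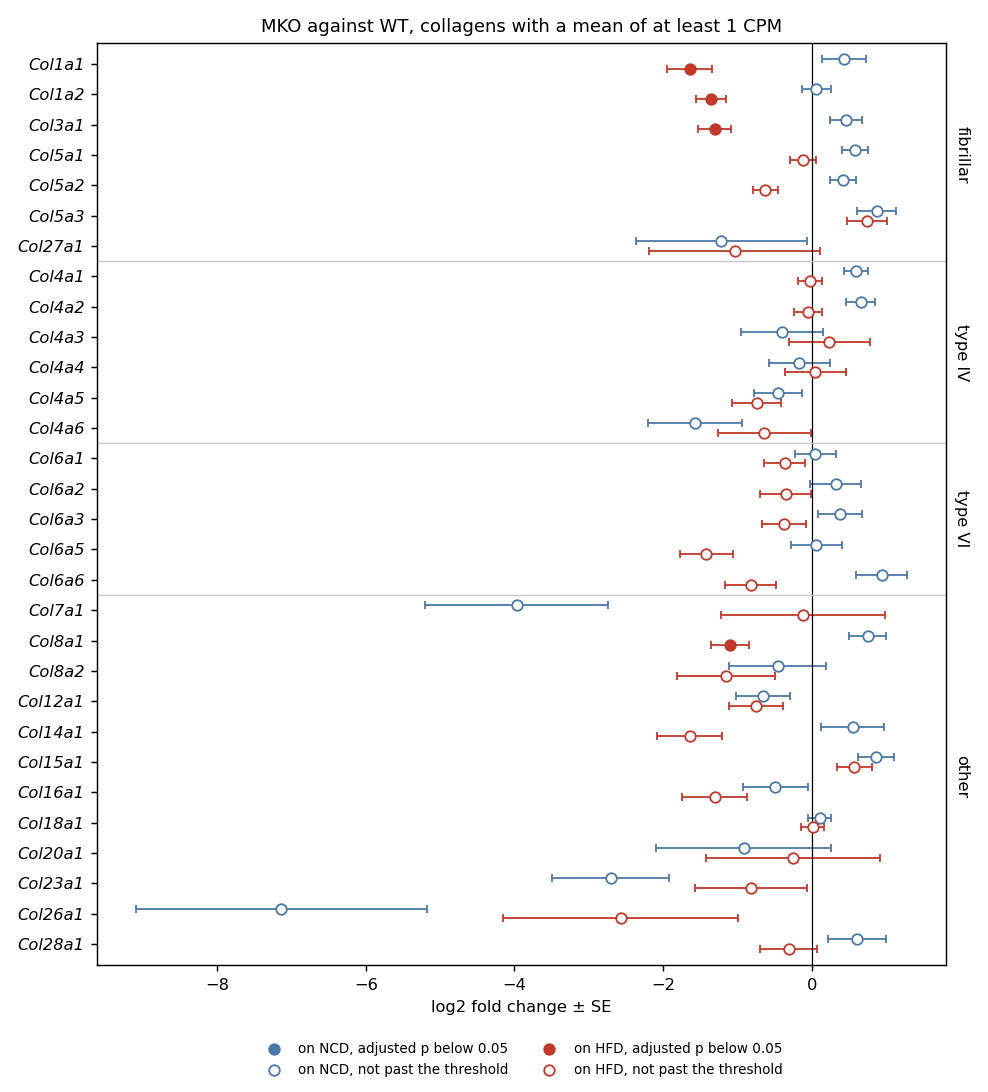
Log2 fold change of MKO against WT (horizontal axis, ± SE) on NCD and on HFD for the 30 collagens with a mean of at least 1 CPM, by class. The filled points, past the threshold, are Col1a1, Col1a2, Col3a1 and Col8a1 on HFD, from -1.64 to -1.10.

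In the authors' deposited table, 13 of 39 collagens with an adjusted p were below 0.05 on HFD, against 17.4% of all genes there. Of these, 11 were lower in MKO and 2, Col5a3 and Col15a1, were higher. The 11 include the type VI genes Col6a5 (fold change -2.668, authors' adjusted p = 2.54e-06) and Col6a6 (-1.769, authors' adjusted p = 1.43e-04). On NCD the authors' deposited table gave 3 of 42, Col7a1, Col23a1 and Col26a1, all lower in MKO, against 7.745% of all genes there.

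Markers of other cells differed between the same HFD libraries. Macrophage markers, 10 of 10 measured, summed to 3949, 5456 and 3528 CPM in WT HFD, against 875, 602 and 1459 CPM in MKO HFD. By the test 9 of 10 were lower, where 2.24% of all genes were. Fibroblast and progenitor markers other than collagens, 10 of 10 measured, summed to 1105, 1058 and 1079 CPM in WT HFD, against 1017, 936 and 792 CPM in MKO HFD. Of these, 1, Pdgfra (-1.17, SE 0.20, adjusted p = 0.0134), was lower. No marker of either list was at 0 in all libraries of a group. Their part in the collagen levels was not tested.

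The interaction asks whether the diet effect differed between genotypes. It was called for 1 of 41 collagens, Col3a1, at -1.77 (SE 0.31, adjusted p = 0.0489), where 0.261% of all genes were called, 0.118% higher and 0.143% lower. Col1a1 (-2.07, SE 0.42, adjusted p = 0.0605), Col1a2 (-1.42, SE 0.28, adjusted p = 0.0565), Col8a1 (-1.85, SE 0.35, adjusted p = 0.0565) and also Col5a2 (-1.05, SE 0.24, adjusted p = 0.0778) had the same sign and missed the threshold. For collagens that rose in both genotypes the interaction was -0.42 (SE 0.40, adjusted p = 0.783) for Col6a1, -0.67 (SE 0.49, adjusted p = 0.671) for Col6a2 and -0.09 (SE 0.51, adjusted p = 0.990) for Col12a1. The Col3a1 call held without MKO NCD rep 2, WT HFD rep 3 or MKO HFD rep 3 and was lost without each of the other 9 libraries, with adjusted p up to 0.144. The count was 2 without WT HFD rep 3 and 5 without MKO HFD rep 3, where 0.312% and 1.34% of all genes were called.

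Averaged over diets, 4 of 41 collagens were called between MKO and WT, where 7.26% of all genes were called, 4.04% higher and 3.22% lower. Col5a3 (0.81, SE 0.19, adjusted p = 0.0280) and Col15a1 (0.72, SE 0.17, adjusted p = 0.0288) were higher, and Col1a2 (-0.65, SE 0.14, adjusted p = 0.0215) and Col26a1 (-4.86, SE 1.25, adjusted p = 0.0415) lower. The Col1a2 effect was 0.06 (SE 0.20) on NCD and -1.36 (SE 0.20) on HFD, so it was not shared by the diets. Col5a3, Col15a1 and Col26a1 each had the same sign on both diets. Col26a1, known from testis and ovary, had 572, 365 and 10 counts in WT NCD, 5, 0 and 0 in MKO NCD, 26, 60 and 36 in WT HFD and 12, 0 and 7 in MKO HFD. In the same order, the WT NCD libraries held 6368, 7256 and 7501 CPM of epididymis markers. Their smooth muscle and pericyte markers summed to 12010.0, 1630.0 and 493 CPM. The part of either tissue in Col26a1 was not tested. The number of collagens called was 0 without MKO NCD rep 3 or WT HFD rep 2, with 4.53% and 3.14% of all genes called. It was 1 without WT NCD rep 1 or rep 2, with 5.36% and 5.77%, and without MKO HFD rep 2, with 2.85%. It was also 1 without WT HFD rep 1 or rep 3, with 4.33% and 4.58%. Without MKO HFD rep 1 it was 2, with 3.62%. Adjusted p reached 0.0767 for Col5a3, 0.0804 for Col15a1, 0.0607 for Col1a2 and 0.0936 for Col26a1.

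The balance between chains also varied. The FPKM ratio of Col1a1 to Col1a2 was 0.329, 0.297 and 0.269 in WT NCD, against 0.601, 0.572 and 0.651 in WT HFD. In MKO it was 0.324, 0.496 and 0.306 on NCD, against 0.436, 0.442 and 0.589 on HFD. Each WT HFD library lay above each WT NCD library, and the MKO groups overlapped. The ratio of Col5a3 to Col5a1 on HFD was 2.14 to 2.26 in WT, against 2.92 to 4.86 in MKO. That of Col3a1 to Col4a1 was 1.22 to 1.85, against 0.517 to 0.806. The ratio of Col6a1 to Col6a2 was 1.20 to 1.41 in WT NCD and 0.884 to 0.966 over the 6 HFD libraries. In MKO NCD it was 1.014, 1.47 and 0.942, a range that overlapped both. The ratios were not tested.

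**Figure D5:**
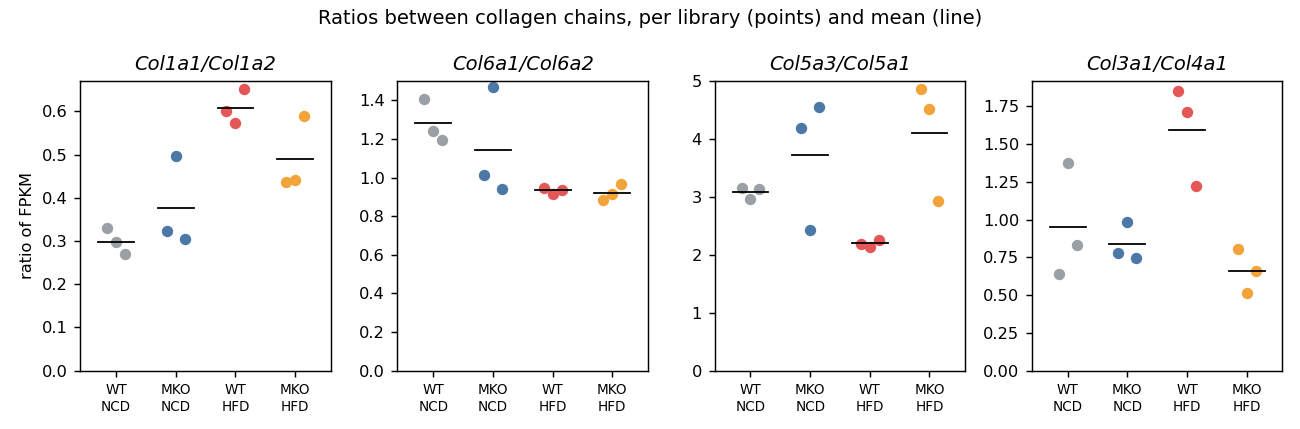
Ratios of FPKM between collagen genes per library (points, vertical axis from 0), with the group mean (line). Col1a1/Col1a2 lies at 0.269 to 0.329 in WT NCD and 0.572 to 0.651 in WT HFD, and Col3a1/Col4a1 on HFD at 1.22 to 1.85 in WT and 0.517 to 0.806 in MKO.

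Of 19 genes that hydroxylate and fold collagen chains, 10 rose and 1, P3h4, fell with diet in WT, and 3 rose and none fell in MKO. Over all genes tested 9.5% rose and 8.28% fell in WT, and 1.04% rose in MKO. Serpinh1, the chaperone HSP47 that binds the procollagen helix, read 226, 242 and 205 CPM in WT NCD, against 817, 786 and 925 CPM in WT HFD. MKO fat held 436, 351 and 383 CPM of it on NCD, against 1096, 1219 and 1127 CPM on HFD. None of the 4 groups overlapped, and MKO HFD was the highest. HFD raised Serpinh1 by 1.91 (SE 0.12, adjusted p = 5.38e-05) among WT libraries, and 1.56 (SE 0.12, adjusted p = 5.35e-04) among MKO libraries. Between genotypes it was 0.80 (SE 0.12, adjusted p = 0.00527) on NCD, with 0.62 (SE 0.08, adjusted p = 0.00227) averaged over diets. On HFD it missed the threshold at 0.45 (SE 0.12, adjusted p = 0.0668). P3h1, a prolyl hydroxylase, and Plod3, a lysyl hydroxylase, were the other 2 that rose in MKO (0.76, SE 0.13, adjusted p = 0.0165 and 0.58, SE 0.11, adjusted p = 0.0315). On HFD 1 of the 19, the chaperone Fkbp10, was lower in MKO (-0.86, SE 0.20, adjusted p = 0.0422), where 2.24% of all genes were lower.

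Of 7 genes of propeptide removal 4 rose with diet in WT, against 9.5% of all genes. None was called in MKO, where 2.01% of all genes were. The 4 are the proteases Adamts2 (1.65, SE 0.18, adjusted p = 3.56e-04) and Bmp1 (1.07, SE 0.17, adjusted p = 0.00218) and the enhancers of Bmp1, Pcolce (1.91, SE 0.25, adjusted p = 7.52e-04) and Pcolce2 (2.56, SE 0.55, adjusted p = 0.00880). On HFD Pcolce was lower in MKO (-1.11, SE 0.25, adjusted p = 0.0360). Of 5 crosslinking enzymes 4 rose in WT and 1 in MKO, against 9.5% and 1.04% of all genes. Lox, which oxidises lysines of collagen, went from 40.9 ± 15.3 to 218 ± 23.4 CPM in WT (2.41, SE 0.28, adjusted p = 4.31e-04). In MKO it went from 42.2 ± 9.86 to 101 ± 15.7 CPM (1.26, SE 0.27, adjusted p = 0.0419). Its relative Loxl2 was lower in MKO on HFD (-1.12, SE 0.25, adjusted p = 0.0375).

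Of 11 collagen receptors, 10 were tested. Mrc2, which takes up collagen for degradation (4.07, SE 0.61, adjusted p = 0.00144), and the kinase Ddr2 (0.70, SE 0.20, adjusted p = 0.0331) rose with diet in WT, 2 of 10 against 9.5% of all genes. No receptor was called for diet in MKO, where 2.01% of all genes were. Mrc2 read 163, 194 and 224 CPM in WT HFD, against 22.4, 29.2 and 143 CPM in MKO HFD. MKO HFD rep 3 was the highest of the 3 MKO libraries, as it was for Col16a1. Antxr1 was lower in MKO on HFD (-1.22, SE 0.28, adjusted p = 0.0377), and Antxr2 was higher in MKO on NCD (0.47, SE 0.11, adjusted p = 0.0349).

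Of 9 genes of collagen degradation and its inhibitors, 6 rose and 1 fell with diet in WT, none was called in MKO, and 4 were lower in MKO than in WT on HFD. The shares of all genes were 9.5% and 8.28% for diet in WT, 2.01% for diet in MKO and 2.24% for those lower in MKO on HFD. The 4 are Mmp14, a membrane-bound collagenase (-1.62, SE 0.21, adjusted p = 0.00945), the gelatinase Mmp2 (-1.74, SE 0.28, adjusted p = 0.0124), the lysosomal collagenase Ctsk (-2.22, SE 0.34, adjusted p = 0.0113) and the inhibitor Timp2 (-1.18, SE 0.25, adjusted p = 0.0296). The interaction was called for 1 of the 9, Mmp14 (-1.66, SE 0.29, adjusted p = 0.0489), where 0.143% of all genes were lower. Of 11 genes that control collagen transcription, 3 rose with diet in WT, against 9.5% of all genes. None was called for diet in MKO, where 2.01% of all genes were. The interaction was called lower for 1 of these 11, against 0.143% of all genes. The receptor Tgfbr2 (-0.67, SE 0.15, adjusted p = 0.0327) and its ligand Tgfb1 (-0.89, SE 0.12, adjusted p = 0.00945) were lower in MKO on HFD, where 2.24% of all genes were lower. Calls of these genes other than collagens were not refitted with a library left out.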

How the data were processed

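Whole gonadal fat was measured by stranded mRNA sequencing, per the labels' protocols. The submitters' processing notes name bcl2fastq (2.20.0), Trimmomatic, HISAT2 (2.1.0), StringTie (1.3.4d), DESeq2 and the build mm10. The deposited table gives raw read counts per gene and library, per the file headers, and these were tested. The authors also deposited FPKM, used here to compare levels between genes, and TPM and normalized log2 values, not used here. In the authors' deposited comparisons the fold change, its error and the statistic are each a score per gene, and of the p-values the adjusted ones are counted.

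The counts were filtered with filterByExpr of edgeR 4.0.16 (R 4.3.3) by group and scaled by TMM. All 12 libraries entered 1 fit by group, with robust quasi-likelihood F tests. SE is the absolute log2 fold change over the square root of F. Other size factors (RLE, upper quartile), no filter, DESeq2 1.42.0, voom of limma 3.58.1, the compared libraries only, a replicate block and leaving out each library were tried. Simulated data were used to check the test. Gene bounds and promoters are from RefSeq (GRCm38.p6), exons from GENCODE. Matplotlib 3.10.9 drew the figures.

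Every collagen is named, and each library's CPM is given for called collagens with a mean of at least 1 CPM. For Col26a1 the counts are given instead. Members and lists were chosen with earlier results of these data known. The p-values rest on the spread between libraries of the same group, estimated jointly over the 4 groups and with information shared across genes. A library outside a comparison thus also enters its p-values.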

Additional observations from a re-analysis of the deposited data

Results flagged for a closer look

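The diet effect on Col3a1 differed between genotypes by a test of the difference itself, with an interaction of -1.775 on the log2 scale (edgeR adjusted p = 0.0489). The call held in 3 of the 12 fits that each leave out 1 library, with adjusted p up to 0.144, and was lost with RLE or upper-quartile size factors and with the replicate block. Each of the 3 WT HFD libraries lay above each WT NCD library, and the MKO groups overlapped.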

How the results depend on the processing

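With DESeq2 the number of collagens called was 13 for HFD against NCD in MKO, 8 for MKO against WT on NCD, 8 for MKO against WT on HFD, 7 for the interaction and 11 for the average over diets, where 9.7%, 10.9%, 12.1%, 6.89% and 15.8% of all genes with an adjusted p were called. With limma-voom and sample weights the same counts were 10, 6, 14, 10 and 11, where 6.8%, 7.13%, 18.1%, 4.33% and 16.9% of all genes were called. With only the libraries compared, 0 collagens were called for diet in MKO and 11 for MKO against WT on HFD, with 0.235% and 12.7% of all genes. The interaction count was 0 with RLE or upper-quartile size factors, with 0.256% of all genes under each. Leaving out any 1 library gave counts of 16 to 24 for diet in WT and 1 to 10 for diet in MKO. They were 0 to 5 on NCD, 0 to 8 on HFD, 0 to 5 for the interaction and 0 to 6 for the average. The share of all genes was 8.78 to 31.4% for diet in WT, 0.348 to 2.23% for diet in MKO and 1.82 to 4.76% on NCD. It was 0.0325 to 7.32% on HFD, 0.0093 to 1.34% for the interaction and 2.85 to 11% for the average. The causes of these moves were not tested.

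Of 2121 values of single collagens under the alternatives, 55 had lost the sign of the reported value, in 17 pairs of a collagen and a comparison, and 2 of these were 0 at 3 decimals. 0 of the 55 passed the threshold in either fit. Col1a2 moved from 0.064 to -0.038 with limma-voom on NCD. Col6a1 moved from 0.051 to -0.001 with RLE size factors, -0.001 with DESeq2 and -0.012 with the block on NCD. Col18a1 moved from 0.011 to -0.014 with RLE size factors, -0.014 with DESeq2 and -0.101 with limma-voom on HFD. Col4a1 moved from -0.022 to 0.017 with upper-quartile size factors on HFD. Col10a1 moved from 0.218 to -0.078 with DESeq2, -1.096 with limma-voom and -0.045 with the block for the average over diets. Col6a2 moved from -0.014 to 0.008 with upper-quartile size factors and 0.092 with limma-voom for the average over diets. Col6a3 moved from -0.001 to 0.026 with upper-quartile size factors, 0.17 with limma-voom and 0.024 with the block for the average over diets. When 1 library was left out, values ranged for diet in MKO over -0.145 to 0.711 for Col14a1, -0.001 to 0.314 for Col1a2 and -0.254 to 0.072 for Col8a1. They ranged on NCD over 0 to 3.775 for Col10a1, -0.008 to 0.201 for Col18a1, -0.058 to 0.168 for Col1a2, -0.339 to 0.32 for Col6a1 and -0.119 to 0.688 for Col6a2. They ranged on HFD over -0.166 to 0.115 for Col18a1 and -0.067 to 0.031 for Col4a1. They ranged for the interaction over -0.559 to 0.291 for Col12a1, -0.278 to 0.02 for Col18a1 and -0.416 to 0.161 for Col5a3. They ranged for the average over diets over -1.395 to 0.685 for Col10a1, -0.027 to 0.113 for Col18a1, -0.233 to 0.17 for Col6a2 and -0.113 to 0.188 for Col6a3.

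Replicate numbers showed no sign of pairing the libraries, though with 3 libraries per group this check cannot exclude a pairing. The correlation of deviations from the group means ran from -0.143 to 0.165 between libraries of the same number (median 0.032, 18 pairs) and from -0.181 to 0.185 between different numbers (median -0.004, 36 pairs), and 4 of 12 libraries correlated best with their own number. With the replicate block the counts were 2 for MKO against WT on HFD, 0 for the interaction and 2 for the average, where 1.29%, 0.0591% and 4.11% of all genes were called.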
